A study of Mus musculus with 12 samples.

Results

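Low salt intake combined with enalapril, an inhibitor of the angiotensin-converting enzyme, was given to mice for 14 days, and the response of sorted macula densa cells was compared with that of sorted control cells from the same kidney cortex. The quantity compared is a difference of differences: low salt plus enalapril (called treatment below) minus control diet in macula densa cells, less the same contrast in control cells. It draws on all 12 libraries of the series, which the sample titles place in 4 groups: 2 macula densa libraries and 4 control-cell libraries on control diet, and 2 and 4 on treatment. All mice were of the C57BL/6 strain and carried nNosCreERT2-mTmG, a CreERT2 recombinase expressed from the neuronal nitric oxide synthase gene together with a reporter whose membrane colour turns from red to green in recombined cells. Green cells were collected as macula densa cells, so the label follows the activity of that gene, and the most intensely red cells were collected as control cells for the distal tubule and collecting duct. Treated mice received enalapril at 150 mg/L in drinking water with the low salt diet. Age, sex and the number of mice behind a library are not stated in the sources used here, so p-values measure the spread between these samples, which may be technical in part. The libraries held 159 to 552 counts of Y-linked genes and 0 to 19 of Xist, the pattern of male cells.

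The macula densa is a plaque of tubular cells, where the thick ascending limb meets its own glomerulus, that senses luminal sodium chloride through the Slc12a1 cotransporter. When salt delivery is low it makes prostaglandin E2 with cyclooxygenase 2, the product of Ptgs2, and it makes nitric oxide with the neuronal synthase encoded by Nos1. These signals act on neighbouring renin cells, and blockade of angiotensin II formation removes the feedback that restrains renin.

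Expression is given as CPM, counts scaled to the size of the library by trimmed means of M values, listed by replicate number, and a diet difference is the log2 value of treatment minus control diet within a population. The response difference is the macula densa diet difference minus the control-cell diet difference. Total counts ran from 4259020 to 14856542 per library, of which nuclear protein-coding genes held 781257 to 2331481. Slc12a1, a marker of the macula densa and of the whole thick ascending limb, measured 1769 and 2026 CPM on control diet and 1875 and 2012 CPM on treatment in macula densa cells. It does not tell these cells apart. Summed over 13 thick ascending limb markers, Slc12a1 among them, macula densa libraries held 3740 to 4729 CPM on control diet and 2780 to 2950 CPM on treatment. Egf, described below, is 1 of the 13, with a diet difference of -3.0 in macula densa cells. The median diet difference of the 13 there was -0.14, so the lower sum does not describe the list as a whole. Nos1, Ptgs2 and Pappa2 are given below. In control cells Slc12a1 measured 41.8, 59.4, 223 and 309 CPM on control diet and 219.8, 194, 429.7 and 143 CPM on treatment. The control-cell libraries were mixed and unequal. Summed over 12 podocyte markers they held 81.6 to 1854 CPM on control diet and 198 to 1463 CPM on treatment, and summed over 11 markers of collecting duct principal cells 167 to 1119 and 129 to 411 CPM. Control-cell replicate 4 on control diet stood apart, with correlations of log2 CPM with the other replicates of 0.788 to 0.879 where those 3 correlated at 0.933 to 0.948. It had the lowest level of the endothelial receptor Kdr, at 507, 414, 249.9 and 8.16 CPM over the 4 replicates on control diet, and the highest level of the water channel Aqp2, at 47.5, 85.03, 175 and 252 CPM. Macula densa replicate 1 on control diet held more Kdr than the other macula densa libraries, at 54.5 and 5.62 CPM on control diet and 4.21 and 3.94 CPM on treatment. In sorted bulk samples, fewer cells of a type and less RNA per cell cannot be told apart.

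Promoter windows are shown for genes of the results below: Ren1, Ccn1 and Rpl27a, which were higher on treatment in both populations, Anxa1, which differed between them, and Ptgs2, the enzyme of the macula densa signal. Each window covers 250 bases before to 50 bases after the start site in RefSeq on GRCm38.p6, read on the gene's strand, and capitals mark matches to the motifs searched on either strand. Coordinates are chr1:133350424-133350723 on the forward strand for Ren1, chr3:145649936-145650235 on the reverse strand for Ccn1, chr7:109518945-109519244 on the forward strand for Rpl27a, chr19:20390622-20390921 on the reverse strand for Anxa1 and chr1:150099781-150100080 on the forward strand for Ptgs2.
Ren1: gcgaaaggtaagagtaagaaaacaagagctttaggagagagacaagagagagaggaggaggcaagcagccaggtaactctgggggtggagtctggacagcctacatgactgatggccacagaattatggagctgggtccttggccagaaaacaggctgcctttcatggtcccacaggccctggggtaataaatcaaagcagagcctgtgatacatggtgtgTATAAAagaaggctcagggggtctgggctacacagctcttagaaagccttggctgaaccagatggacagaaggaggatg
Ccn1: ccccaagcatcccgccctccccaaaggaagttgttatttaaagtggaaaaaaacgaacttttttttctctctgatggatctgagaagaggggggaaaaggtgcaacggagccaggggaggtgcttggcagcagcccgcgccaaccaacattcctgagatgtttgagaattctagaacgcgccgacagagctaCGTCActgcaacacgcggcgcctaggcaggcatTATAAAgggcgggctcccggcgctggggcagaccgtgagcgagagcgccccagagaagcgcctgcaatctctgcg
Rpl27a: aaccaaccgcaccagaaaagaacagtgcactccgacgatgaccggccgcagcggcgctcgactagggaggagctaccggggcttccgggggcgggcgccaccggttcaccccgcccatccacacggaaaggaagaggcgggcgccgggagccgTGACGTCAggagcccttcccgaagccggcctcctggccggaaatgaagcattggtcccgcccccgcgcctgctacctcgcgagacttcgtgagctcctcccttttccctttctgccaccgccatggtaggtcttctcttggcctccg
Anxa1: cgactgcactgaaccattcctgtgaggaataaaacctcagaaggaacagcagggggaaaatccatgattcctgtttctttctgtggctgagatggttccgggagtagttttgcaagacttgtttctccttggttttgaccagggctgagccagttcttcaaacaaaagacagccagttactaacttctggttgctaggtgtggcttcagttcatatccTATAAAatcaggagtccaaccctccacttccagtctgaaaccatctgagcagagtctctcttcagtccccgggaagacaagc
Ptgs2: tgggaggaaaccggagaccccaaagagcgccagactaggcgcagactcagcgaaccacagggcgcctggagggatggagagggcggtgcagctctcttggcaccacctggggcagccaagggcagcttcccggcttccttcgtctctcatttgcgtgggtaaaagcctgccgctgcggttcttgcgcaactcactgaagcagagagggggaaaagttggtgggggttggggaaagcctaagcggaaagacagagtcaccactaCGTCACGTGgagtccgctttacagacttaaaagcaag
The motifs were TGACGTCA (the cyclic AMP element, present in 1.79% of all 32851 windows of the table), TGACG (its first 5 bases, 20.8%, which overlaps it), TGANTCA (the AP-1 element, 7.81%), CACGTG (the E-box, 7.15%) and TATAAA (13.6%). Ren1 and Anxa1 held TATAAA, Ccn1 held TGACG and TATAAA, Rpl27a held TGACGTCA, and in Ptgs2 a TGACG match and a CACGTG match overlapped downstream of the start. Among the 6 genes with a window that were named as higher in both populations, 4 held TGACG and 3 held TATAAA. Of the 7 with a larger response in macula densa cells, 1 held each of these, and of the 8 with a smaller one, 2 did. Of the 6 named as lower in both populations, 1 held each. A match describes letters in the window and says nothing about binding.

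No gene passed an adjusted p of 0.05 for the response difference (0 of 14180 genes tested, 0%) in edgeR's quasi-likelihood test, and the smallest adjusted p was 0.382. At an unadjusted p under 0.05 there were 997 genes (7.03%), 493 with a positive (3.48%) and 504 with a negative response difference (3.55%). The DESeq2 Wald test called 13 genes and limma voom 0. For the diet difference itself, 0 genes passed in macula densa cells (0%), with 1594 at an unadjusted p under 0.05 (11.2%), and 1 gene, Ren1, passed in control cells (0.00705%), with 914 at an unadjusted p under 0.05 (6.45%). The DESeq2 Wald test called 93 and 74 genes in these comparisons, and limma voom 4 and 1. Genes described below by an adjusted p above 0.05 did not pass the threshold, and an unadjusted p under 0.05 is used for counting only. Across genes, 8019 of 14180 (56.6%) had diet differences of the same sign, and over the 6597 genes that averaged 5 CPM or more, none with a group at the floor of 3 counts, the Pearson correlation of the 2 diet differences was 0.359, given as a description because genes are not independent. Of the 183 genes at an unadjusted p under 0.05 in both populations, which are 11.5% of the macula densa list and 20% of the control-cell list, 152 had the same sign (1.07% of all genes tested) and 31 opposite signs.

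**Figure D1:**
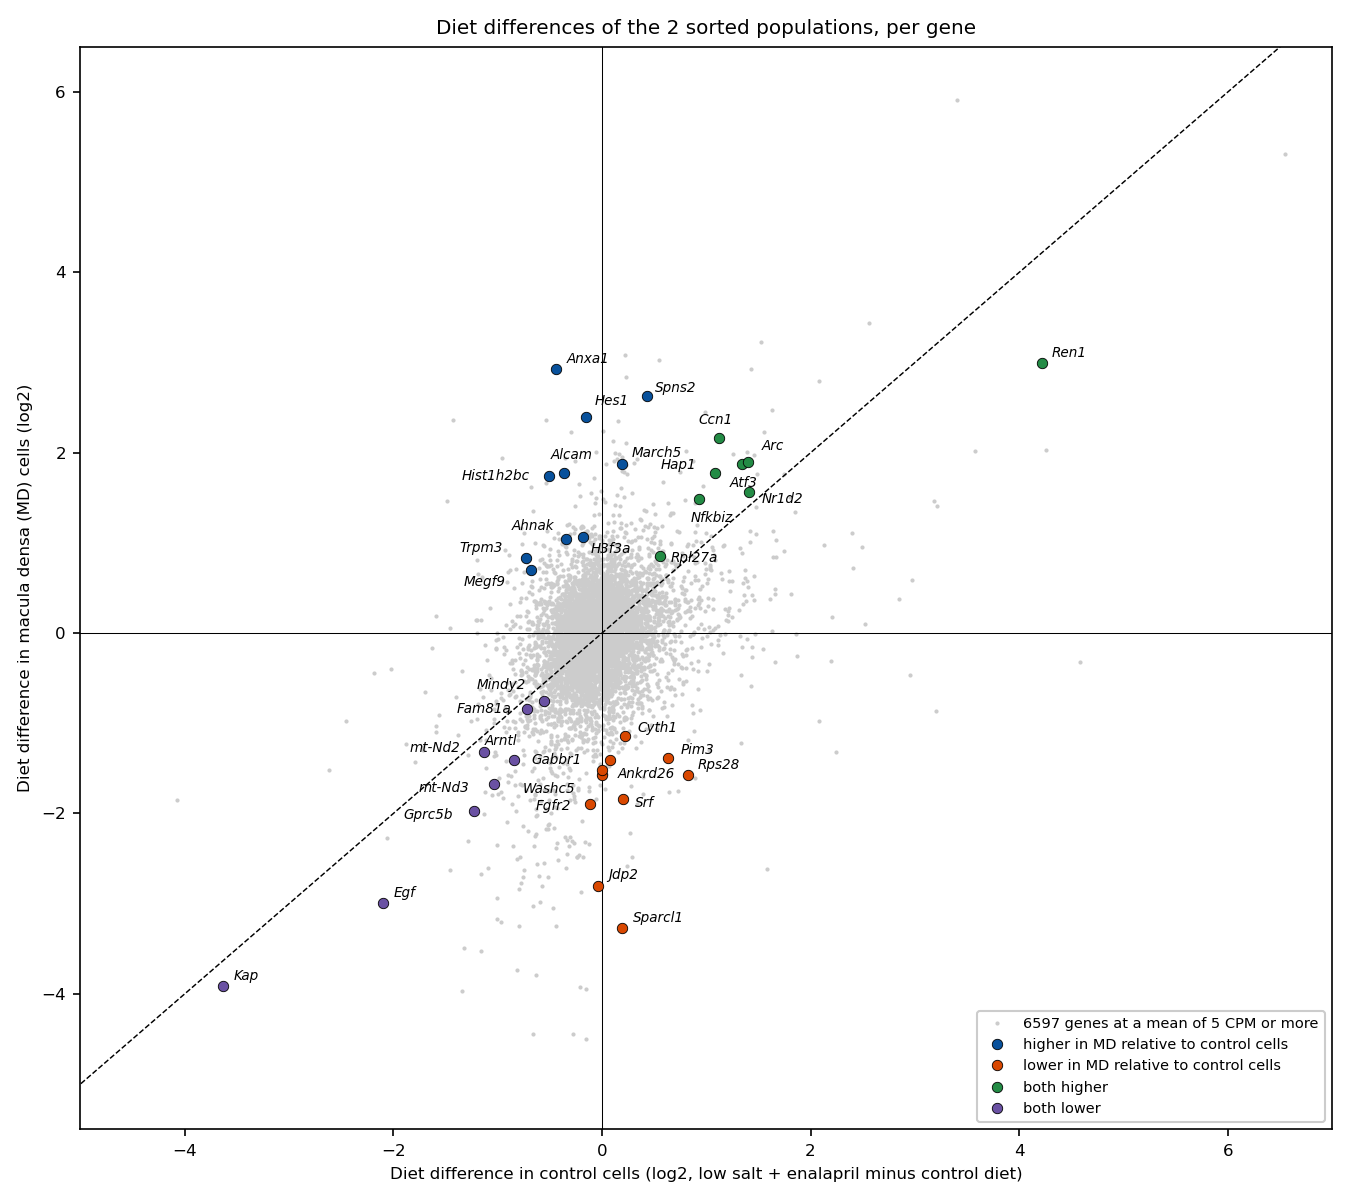
Diet difference of each gene in control cells (x axis, log2) and in macula densa cells (y axis, log2), for 6597 genes averaging 5 CPM or more; the dashed line marks equal values. Ren1 lies far up on both axes, at 4.21 in control cells and 2.99 in macula densa cells, Anxa1 and Sparcl1 lie far from the dashed line and near 0 on the control-cell axis, Kap and Egf are low in both populations, and Lcn2 is the unlabelled point farthest to the right, at 6.55 and 5.31.

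The 10 genes named for a larger response in macula densa cells all lay, except Megf9, below the control-cell mean in macula densa cells on control diet. A low macula densa value or a high control-cell value on control diet raises the response difference. The choice of genes thus favours this, and nothing is read from it. Anxa1, annexin A1, a calcium-dependent membrane-binding protein known for anti-inflammatory actions, lies on chromosome 19 from 20373428 to 20390944. Macula densa cells held 2.36 and 0.733 CPM on control diet and 9.20 and 13.9 CPM on treatment, without overlap. In control cells it measured 12.7, 11.7, 8.95 and 6.92 CPM on control diet and 4.53, 9.55, 6.51 and 9.36 CPM on treatment, with overlapping groups. Its response difference was 3.36 (standard error 0.64, edgeR adjusted p = 0.394), and with any 1 library left out it lay between 2.63 and 4.33. Alcam, an adhesion molecule of the immunoglobulin family on chromosome 16 from 52248996 to 52454074, measured 6.67 and 3.83 CPM on control diet and 19.9 and 15.9 CPM on treatment in macula densa cells. The control cells held 39.8, 30.3, 25.4 and 28.4 CPM on control diet and 20.6, 32.1, 18.5 and 25.02 CPM on treatment, so treated macula densa cells came up to the lower end of the control-cell range. The response difference of Alcam was 2.14 (standard error 0.42, edgeR adjusted p = 0.394). Ahnak, which encodes a very large scaffold protein at the plasma membrane that binds annexin A2 complexes, lies on chromosome 19 from 8989284 to 9076914. It measured 121 and 73.5 CPM on control diet and 197 and 205 CPM on treatment in macula densa cells. In control cells Ahnak measured 379.5, 422, 365 and 378 CPM on control diet and 267, 313, 334 and 306 CPM on treatment. Here the groups did not overlap in either population, higher on treatment in macula densa and lower in control cells, for a response difference of 1.39 (standard error 0.32, edgeR adjusted p = 0.556).

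Hes1 and Spns2 were also lower in macula densa cells than in control cells on control diet. Hes1 on chromosome 16 from 30064384 to 30067796, a transcriptional repressor induced by Notch signalling, measured 0.616 and 1.38 CPM on control diet and 2.87 and 7.87 CPM on treatment in macula densa cells. The control cells held 7.22, 11.9, 12.4 and 14.2 CPM on control diet and 9.68, 10.8, 7.35 and 13.2 CPM on treatment, giving a response difference of 2.54 (standard error 0.63, edgeR adjusted p = 0.558). The value was 1.58 without macula densa replicate 2 on treatment. Spns2, the exporter of sphingosine 1-phosphate on chromosome 11 from 72451638 to 72489904, measured 2.67 and 4.15 CPM on control diet and 28.4 and 14.3 CPM on treatment in macula densa cells. In control cells Spns2 measured 9.73, 9.30, 12.5 and 14.5 CPM on control diet and 18.8, 18.4, 10.5 and 14.04 CPM on treatment. All 4 macula densa values stood apart by diet, and the control-cell groups overlapped, for a response difference of 2.20 (standard error 0.49, edgeR adjusted p = 0.532). March5, a ubiquitin ligase of the mitochondrial outer membrane, measured 2.77 and 4.07 CPM on control diet and 13.4 and 11.97 CPM on treatment in macula densa cells. In control cells March5 measured 4.70, 4.51, 6.19 and 6.30 CPM on control diet and 5.38, 6.86, 8.19 and 4.68 CPM on treatment, with a response difference of 1.69 (edgeR adjusted p = 0.558). The other 4 were Megf9, a membrane protein with EGF-like repeats (1.39), the cation channel gene Trpm3 (1.56), and the histone genes H3f3a (1.25) and Hist1h2bc (2.25), which are uncertain because histone genes have near-identical copies. Exons of Spns2, H3f3a and Trpm3 overlap a gene on the opposite strand, and since the sources used here do not say whether counting used strand, their counts are uncertain as well.

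The 10 genes named for a smaller response were lower on treatment in macula densa cells, while the control-cell groups overlapped for 10 of 10. In macula densa cells the groups did not overlap for 20 of 20 genes named in either direction, which holds for 40.6% of all genes tested (18.8% higher and 21.8% lower) with 2 libraries in each group. In control cells the groups did not overlap for Ahnak and Trpm3 among the 20, both lower on treatment, against 4.2% of all genes (2.1% higher and 2.09% lower). Subtracting the control-cell library with the same description number from each macula densa library left differences that did not overlap by diet for 20 of 20, where 37.6% of all genes do so (17.7% higher and 19.9% lower). The macula densa count and this one follow from how the 20 were chosen, and nothing is read from them. Sparcl1, a secreted glycoprotein of the SPARC family, lies on chromosome 5 from 104079111 to 104113733. It measured 10.6 and 6.92 CPM on control diet and 1.15 and 0.656 CPM on treatment in macula densa cells. In control cells Sparcl1 measured 52.4, 54.7, 48.8 and 23.97 CPM on control diet and 40.5, 64.6, 46.2 and 55.03 CPM on treatment. The response difference was -3.47 (standard error 0.57, edgeR adjusted p = 0.382). The treated macula densa values lie near the floor of 3 counts, which is 0.575 and 0.492 CPM in these libraries. Sparcl1 is also made by endothelial and mural cells, and 14 endothelial markers summed to 32.7 to 218 CPM in macula densa libraries on control diet and to 14.4 to 22.2 CPM on treatment. Without macula densa replicate 1 on control diet, which held most of those counts, the Sparcl1 value was -3.20. With a podocyte and endothelium score in the fit it was -3.07, at an edgeR adjusted p of 0.00757. The score is a mean of markers in these same libraries, fitted with 1 slope for both populations. It does not test the part of endothelial cells in macula densa libraries. The score also holds no mural markers, and 9 smooth muscle and renin markers had a median response difference of -1.22. The part of endothelial and mural cells in the Sparcl1 value was not tested.

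Srf, serum response factor, lies on chromosome 17 from 46548329 to 46556175. It measured 6.77 and 4.81 CPM on control diet and 1.92 and 1.31 CPM on treatment in macula densa cells. In control cells Srf measured 5.36, 7.61, 6.76 and 4.65 CPM on control diet and 5.76, 8.57, 4.41 and 9.26 CPM on treatment, for a response difference of -2.04 (standard error 0.53, edgeR adjusted p = 0.558). Jdp2, a leucine zipper repressor that dimerises with Jun proteins, measured 3.59 and 4.07 CPM on control diet and 0.958 and 0.164 CPM on treatment in macula densa cells. In control cells Jdp2 measured 8.31, 7.42, 8.29 and 3.93 CPM on control diet and 5.30, 7.10, 6.93 and 7.93 CPM on treatment. Its response difference was -2.76 (standard error 0.68, edgeR adjusted p = 0.558) and -4.48 without macula densa replicate 1 on treatment. The floor of 3 counts is 0.575 and 0.492 CPM in the treated macula densa libraries. Replicate 2 lies under it for Jdp2 and replicate 1 near it, so the Jdp2 value rests on few counts. Gabbr1, a subunit of the GABA-B receptor on chromosome 17 from 37045966 to 37075067, measured 8.41 and 7.41 CPM on control diet and 2.87 and 2.62 CPM on treatment in macula densa cells. In control cells Gabbr1 measured 15.7, 15.2, 13.3 and 7.75 CPM on control diet and 13.4, 12.7, 11.3 and 14.4 CPM on treatment. The response difference was -1.52 (standard error 0.41, edgeR adjusted p = 0.558). Fgfr2, a receptor for fibroblast growth factors, measured 4.10 and 3.91 CPM on control diet and 1.34 and 0.820 CPM on treatment in macula densa cells. In control cells Fgfr2 measured 25.3, 23.7, 22.4 and 30.1 CPM on control diet and 31.1, 17.9, 21.8 and 22.2 CPM on treatment, so macula densa cells held several-fold less of it on either diet. The response difference of Fgfr2 was -1.78 (edgeR adjusted p = 0.558), with exons that overlap Ctbp2 on the same strand.

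Ankrd26, an ankyrin-repeat protein of the centriole, lies on chromosome 6 from 118501308 to 118562226. It measured 12.3 and 9.86 CPM on control diet and 4.60 and 3.77 CPM on treatment in macula densa cells. In control cells Ankrd26 measured 9.08, 8.27, 7.43 and 7.75 CPM on control diet and 8.22, 7.34, 10.5 and 8.24 CPM on treatment, for a response difference of -1.48 (standard error 0.33, edgeR adjusted p = 0.532). Control cells held it at nearly 1 level throughout, and only the treated macula densa libraries were low. Washc5, a subunit of the WASH complex on endosomes, had a response difference of -1.57, Cyth1, an exchange factor for ARF GTPases, -1.37, the kinase gene Pim3 -2.01, and Rps28, a protein of the small ribosomal subunit, -2.39. Exons of Rps28 and Jdp2 overlap genes on the opposite strand.

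**Figure D2:**
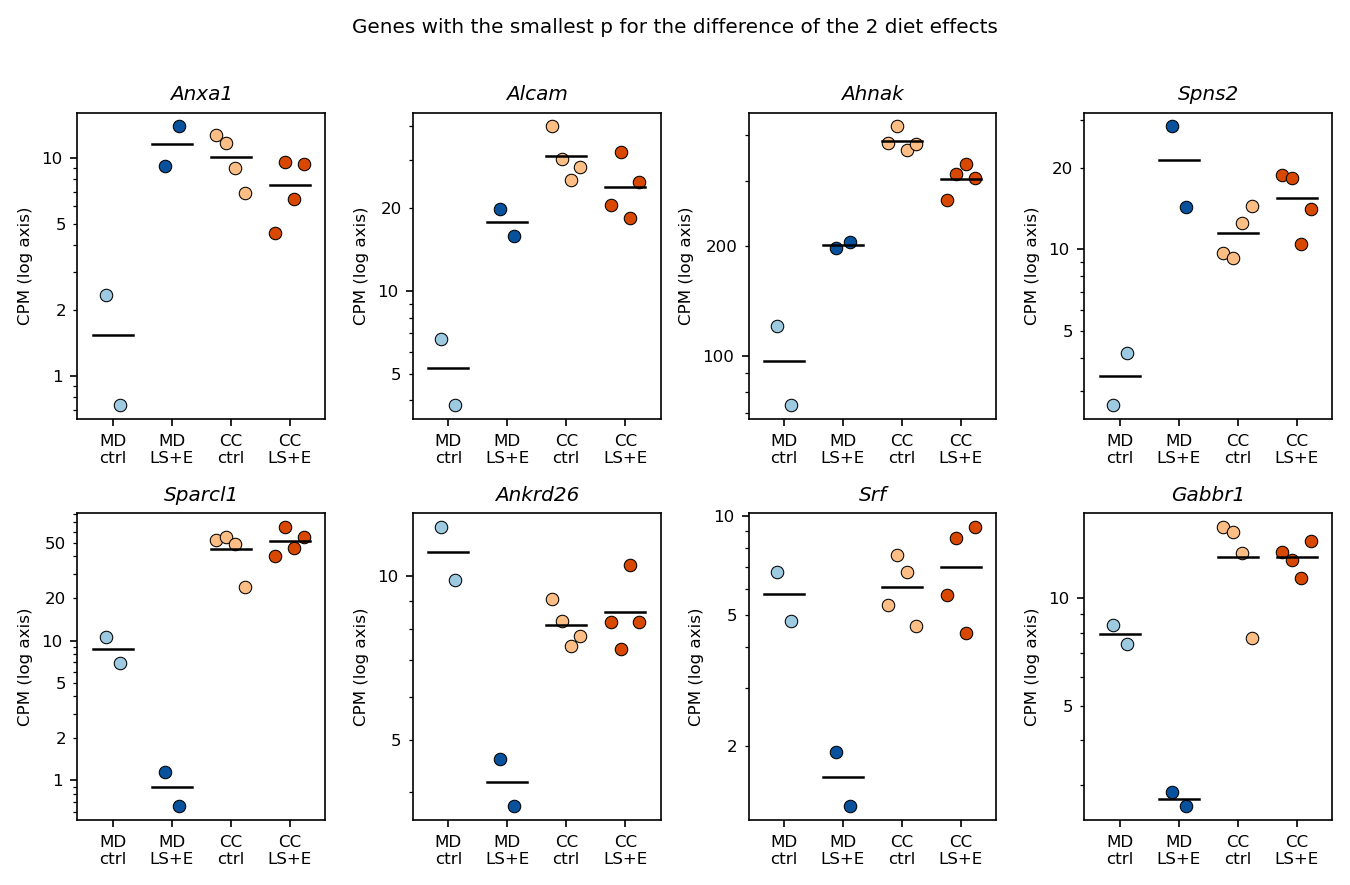
CPM on a log axis for 8 genes named for a differing response, by library (points) with the group mean (line), in macula densa cells (MD, 2 libraries per diet) and control cells (CC, 4 per diet) on control diet (ctrl) and low salt plus enalapril (LS+E). The 2 diets separate in the MD columns of each panel, and the CC columns overlap except for Ahnak.

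Genes at the floor in 1 or more groups are given by counts. Spon1, a matricellular spondin, had 39 and 39 counts in macula densa libraries on control diet and 1 and 1 on treatment, against 115 to 186 and 30 to 174 counts in control cells. Akap2, an anchoring protein for protein kinase A, had 83 and 71 counts on control diet and 0 and 0 on treatment in macula densa cells, against 174 to 456 and 39 to 348 in control cells. Akap2 shares exons with Pakap, and the summed counts of both gave a response difference of -0.78 (edgeR adjusted p = 0.786). Cxcl14, a chemokine, had 0 and 0 counts on control diet and 13 and 11 on treatment in macula densa cells, and control cells held 0 to 2 counts in all 8 libraries. Both control-cell groups are thus at the floor, and the response of Cxcl14 there could not be measured.

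Shared responses were led by renin. Ren1, on chromosome 1 from 133350510 to 133360325, measured 5.58, 1.88, 6.19 and 4.44 CPM on control diet and 42.7, 135, 66.4 and 92.6 CPM on treatment in control cells and rose there by 4.21 on the log2 scale (standard error 0.43, edgeR adjusted p = 0.00476). Macula densa cells held 1.44 and 0.977 CPM on control diet and 8.24 and 10.99 CPM on treatment, a diet difference of 2.99 (standard error 0.63, edgeR adjusted p = 0.215). The treated libraries lay above those on control diet in both populations. Averaged over both populations, 1780 genes had an unadjusted p under 0.05 (12.6%), 877 positive (6.18%) and 903 negative (6.37%), and Ren1 was the 1 gene of 14180 (0.00705%) past the threshold, with a log2 value of 3.6 and an edgeR adjusted p of 0.00957. No gene passed for this average with limma voom, with the title number as a block, or without macula densa replicate 1 or 2 on control diet or replicate 2 on treatment, and none passed in control cells when only those libraries were fitted. The response difference was -1.22 (edgeR adjusted p = 0.774), so a difference in size was not shown. Renin is made by juxtaglomerular cells and their smooth muscle relatives. Myh11, smooth muscle myosin, measured 106, 74.5, 120.5 and 95.05 CPM on control diet and 77.9, 305, 158 and 198 CPM on treatment in control cells. The Myh11 values were 28.8 and 18.3 CPM on control diet and 12.3 and 3.28 CPM on treatment in macula densa cells. Akr1b7, an enzyme of renin cells whose exons overlap a gene on the opposite strand, measured 1.42, 1.03, 0.952 and 1.03 CPM on control diet and 3.77, 10.04, 2.73 and 8.14 CPM on treatment in control cells. The Akr1b7 values were 0.205 and 0.326 CPM on control diet and 0.383 and 0 CPM on treatment in macula densa cells. For Myh11, 3 of 4 treated control-cell libraries lay above every library on control diet, while treated macula densa libraries lay below, and the part of such cells in either Ren1 value was not tested.

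A count of 97 genes (0.684%) was higher and 55 (0.388%) lower at an unadjusted p under 0.05 in both populations. Those named as shared are the 8 per direction with the smallest larger p, so their agreement is how they were chosen and is given as a description. Atf3, a stress-induced factor of the ATF and CREB family on chromosome 1 from 191170296 to 191218039, measured 1.74 and 2.53 CPM on control diet and 5.56 and 10.2 CPM on treatment in macula densa cells. In control cells Atf3 measured 11.04, 10.1, 6.67 and 12.3 CPM on control diet and 27.4, 14.4, 25.8 and 33.6 CPM on treatment. Diet differences were 1.87 (standard error 0.45) and 1.34 (standard error 0.29), and no group pair overlapped. Ccn1, a matricellular protein and target of YAP and TAZ on chromosome 3 from 145646976 to 145649981, measured 1.64 and 0.570 CPM on control diet and 3.45 and 6.23 CPM on treatment in macula densa cells. In control cells Ccn1 measured 9.08, 6.20, 7.81 and 7.85 CPM on control diet and 25.3, 11.8, 13.02 and 16.7 CPM on treatment. Its diet differences were 2.16 (standard error 0.53) and 1.12 (standard error 0.31), again without overlap. Nr1d2, the clock repressor REV-ERB beta on chromosome 14 from 18204054 to 18239127, measured 7.28 and 6.92 CPM on control diet and 18.01 and 23.9 CPM on treatment in macula densa cells. In control cells Nr1d2 measured 6.34, 4.04, 5.05 and 7.65 CPM on control diet and 13.4, 9.30, 23.9 and 14.9 CPM on treatment. The diet differences of Nr1d2 were close, at 1.56 (standard error 0.41) and 1.41 (standard error 0.29). Nfkbiz, an atypical inhibitor of NF-kappa-B (1.48 and 0.93), the activity-regulated gene Arc (1.89 and 1.40), Hap1, huntingtin-associated protein (1.78 and 1.08), and Rpl27a, of the large ribosomal subunit (0.86 and 0.56), completed the set, with macula densa values first.

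Shared lower genes were led by Kap and Egf. Kap, a secreted protein of proximal tubule cells on chromosome 6 from 133849851 to 133853762, measured 42.8 and 63.6 CPM on control diet and 6.51 and 0.656 CPM on treatment in macula densa cells. In control cells Kap measured 6.998, 9.21, 17.05 and 5.89 CPM on control diet and 0.538, 2.45, 0 and 0.610 CPM on treatment. Diet differences were -3.92 (standard error 0.92) and -3.63 (standard error 0.74), with no overlap in either population. Of 14 proximal tubule markers, 0 had positive diet differences in macula densa cells (48.5% of all genes) and 7 in control cells (45.8%). Their medians were -0.99 and 0.09, and their part in the Kap values was not tested. Egf, epidermal growth factor of the distal nephron on chromosome 3 from 129677565 to 129755316, measured 916 and 1365 CPM on control diet and 152 and 134 CPM on treatment in macula densa cells. In control cells Egf measured 89.9, 127, 512 and 739 CPM on control diet and 55.1, 126, 69.7 and 92.3 CPM on treatment. The macula densa diet difference was -3.0 (standard error 0.84). The control-cell value of -2.10 (standard error 0.57) came from overlapping groups and was -1.51 without replicate 4 on control diet. Egf is also a thick ascending limb marker, and the part of such cells in its values was not tested. Arntl, which encodes the clock activator BMAL1 on chromosome 7 from 113207465 to 113314126, measured 9.95 and 11.9 CPM on control diet and 3.45 and 4.76 CPM on treatment in macula densa cells. In control cells Arntl measured 16.1, 12.6, 13.3 and 12.2 CPM on control diet and 5.76, 11.8, 4.62 and 8.34 CPM on treatment. Its diet differences were -1.41 (standard error 0.39) and -0.84 (standard error 0.27). The other 5 were mt-Nd3 (-1.67 and -1.04) and mt-Nd2 (-1.32 and -1.13), both subunits of respiratory complex I encoded in mitochondria, the deubiquitinase gene Mindy2 (-0.75 and -0.56), the receptor gene Gprc5b (-1.97 and -1.23) and Fam81a (-0.84 and -0.71). Exons of Egf, Arntl, Mindy2 and Gprc5b overlap genes on the opposite strand. In the 8 libraries with a shared description number the control-cell value was -0.39 for Arntl, -0.43 for mt-Nd3, -0.42 for Mindy2, 0.49 for Hap1 and 0.38 for Rpl27a, each no longer at an unadjusted p under 0.05. Over all 869 control-cell genes at that p with 12 libraries and tested in the 8, 182 (20.9%) stayed under it with the same sign.

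**Figure D3:**
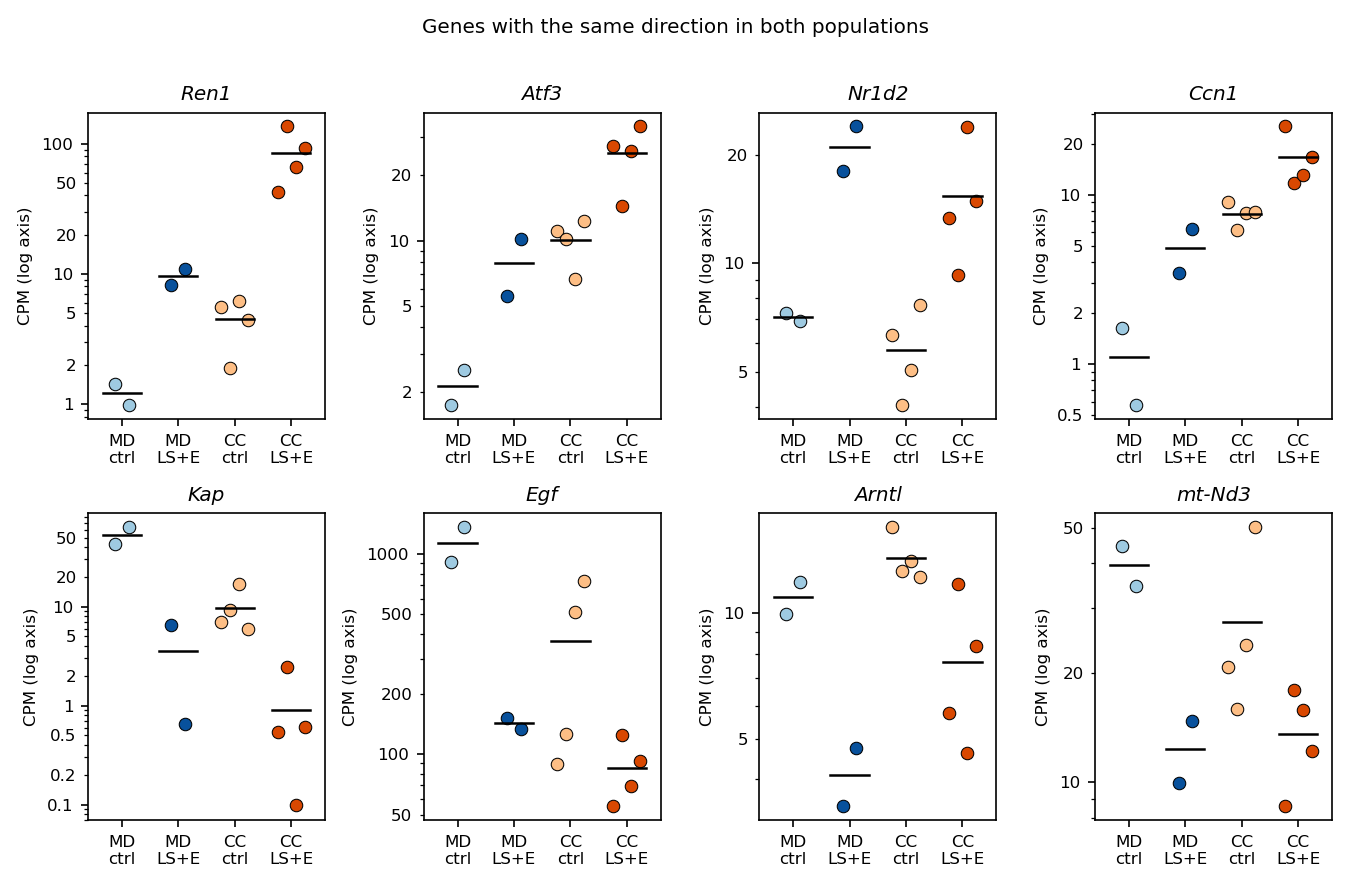
CPM on a log axis for 8 genes named for the same direction in both populations, by library (points) with the group mean (line); a library with 0 CPM is drawn at 0.1. The upper row (Ren1, Atf3, Nr1d2, Ccn1) is higher and the lower row (Kap, Egf, Arntl, mt-Nd3) lower on low salt plus enalapril (LS+E) in macula densa (MD) and control cells (CC), with overlapping CC groups for Egf and mt-Nd3.

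Opposite directions at an unadjusted p under 0.05 in both populations were held by 18 genes higher (0.127%) and 13 lower (0.0917%) in treated macula densa cells. At that p 152 genes (1.07%) had the same sign. Those named as opposite are the ones with the smallest larger p, so their opposite signs are how they were chosen. Trpm3 measured 6.57 and 8.80 CPM on control diet and 15.1 and 12.3 CPM on treatment in macula densa cells. In control cells Trpm3 measured 13.9, 8.83, 8.95 and 7.44 CPM on control diet and 5.69, 6.37, 5.04 and 6.41 CPM on treatment, with diet differences of 0.83 and -0.73. Neither population overlapped by diet. Megf9 had 0.70 and -0.68, Cpq, a secreted carboxypeptidase, 0.98 and -0.57, and Ankrd13c, an ankyrin-repeat protein of the endoplasmic reticulum, 0.54 and -0.50. In the other direction, Plekhm1, an adaptor for fusion of autophagosomes with lysosomes, measured 7.80 and 8.55 CPM on control diet and 6.13 and 3.77 CPM on treatment in macula densa cells. In control cells Plekhm1 measured 8.20, 8.08, 8.48 and 7.75 CPM on control diet and 11.5, 11.997, 11.1 and 9.77 CPM on treatment, with diet differences of -0.73 and 0.44. Tob2, an antiproliferative factor, had -0.82 and 0.60, and Rps28 -1.57 and 0.82. Gm28035, a predicted gene whose exons overlap 3 others, is uncertain, and so are Plekhm1, Tob2 and Cpq, whose exons overlap genes on the opposite strand. In the 8 libraries whose description number occurs in both populations the control-cell values were smaller, at -0.48 for Trpm3, -0.41 for Megf9, -0.34 for Cpq, -0.35 for Ankrd13c, 0.38 for Plekhm1 and 0.14 for Tob2, none at an unadjusted p under 0.05. Rps28 had 0.78 there and was under it. Of 869 control-cell genes at that p with all 12 libraries and tested in the 8, 182 (20.9%) stayed under it with the same sign. The loss is thus usual with fewer libraries, and nothing is read from it for these genes.

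The effectors of the macula densa signal were compared by name. Ptgs2 measured 15.9 and 14.3 CPM on control diet and 175 and 108 CPM on treatment in macula densa cells. In control cells Ptgs2 measured 0, 0.376, 0.571 and 0 CPM on control diet and 0.231, 1.47, 0.420 and 1.12 CPM on treatment. Both treated macula densa libraries lay far above those on control diet, a diet difference of 3.23 (standard error 0.67, edgeR adjusted p = 0.215). Its response difference was 1.71 (standard error 1.10, edgeR adjusted p = 0.788), and the control-cell side is measured near the floor of 3 counts, between 0.231 and 0.734 CPM by library. Nos1 measured 100.4 and 111 CPM on control diet and 232 and 122 CPM on treatment in macula densa cells. In control cells Nos1 measured 0.109, 0.470, 0.381 and 0.413 CPM on control diet and 0.615, 0.734, 0.420 and 0.407 CPM on treatment, for a response difference of 0.14 (standard error 0.66) that was -0.49 without macula densa replicate 1 on treatment. Pappa2, a protease that releases insulin-like growth factors from their binding proteins, measured 228 and 231 CPM on control diet and 774 and 383 CPM on treatment in macula densa cells. In control cells Pappa2 measured 0.219, 1.22, 0.190 and 0.413 CPM on control diet and 0.769, 1.22, 0 and 1.22 CPM on treatment, for 0.67 (standard error 0.95) and -0.27 without control-cell replicate 2 on control diet. For Nos1 and Pappa2, macula densa replicate 1 on treatment was the highest library, and exons of both overlap another gene. Their control-cell values also lie near the floor, so both response differences rest on few counts there. The macula densa diet difference was 0.74 for Nos1 and 1.33 for Pappa2. Over the alternative fits these values ran from 0.13 to 1.08 and from 0.67 to 1.70. Mcub, a regulatory subunit of the mitochondrial calcium uniporter, measured 7.59 and 7.17 CPM on control diet and 28.4 and 26.4 CPM on treatment in macula densa cells. In control cells Mcub measured 2.19, 1.22, 0.476 and 0.207 CPM on control diet and 0.845, 2.45, 1.47 and 0.814 CPM on treatment, for 1.58 (standard error 0.84, edgeR adjusted p = 0.752). Slc12a1 had a response difference of -0.60 (standard error 0.95).

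Other genes of prostaglandin synthesis and sensing had mixed values. Of 14 tested members, 1 had a positive response difference at an unadjusted p under 0.05 and 0 a negative one (background 3.48% and 3.55%). By sign, 9 of 14 were positive (49.5% of all genes), with a median of 0.72 against -0.01 over all genes. The 1 gene was Ptger1, the EP1 receptor, which measured 0.718 and 0.244 CPM on control diet and 1.92 and 2.95 CPM on treatment in macula densa cells. In control cells Ptger1 measured 5.03, 8.64, 13.2 and 23.9 CPM on control diet and 1.69, 7.59, 0.840 and 8.75 CPM on treatment (3.80, edgeR adjusted p = 0.643); its exons overlap a gene on the opposite strand. Pla2g4a, the cytosolic phospholipase A2 that frees arachidonic acid, measured 21.4 and 23.8 CPM on control diet and 42.5 and 31.8 CPM on treatment in macula densa cells, for a diet difference of 0.72 there and -0.11 in control cells. Ptges, the prostaglandin E synthase, measured 4.10 and 4.32 CPM on control diet and 11.3 and 16.6 CPM on treatment in macula densa cells, for 1.72 and -0.07. In control cells 0.656, 4.04, 4.09 and 11.98 CPM on control diet and 7.15, 5.14, 3.57 and 3.66 CPM on treatment overlapped. The list's median response difference was 0.25 without macula densa replicate 1 on treatment.

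Annexins and S100 proteins are calcium-binding partners at the membrane. Of 16 tested, 4 had a positive response difference at an unadjusted p under 0.05 and 0 a negative one (background 3.48% and 3.55%), with a median of 0.36. These were Anxa1, Anxa11 (1.11), S100g (2.95) and Anxa2 (1.09). Exons of Anxa2 and Anxa11 overlap genes on the opposite strand, so their counts are uncertain. Anxa2 measured 3.28 and 5.38 CPM on control diet and 7.66 and 9.84 CPM on treatment in macula densa cells. In control cells Anxa2 measured 36.5, 28.6, 22.4 and 13.5 CPM on control diet and 23.6, 28.2, 19.95 and 23.7 CPM on treatment. S100g, the calcium-binding protein calbindin D9k of the distal nephron, measured 26.7, 39.1, 46.4 and 292 CPM on control diet and 55.9, 13.2, 43.3 and 31.02 CPM on treatment in control cells, and its response difference was 1.51 without replicate 4 on control diet. Macula densa cells held 28.3 and 23.2 CPM on control diet and 60.7 and 81.04 CPM on treatment. Anxa7 (1.01 and 0.47), S100a10 (0.95 and 0.44) and S100a11 (0.63 and 0.55) had positive diet differences at an unadjusted p under 0.05 in both populations, macula densa first.

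Some genes were high in control-cell replicates 1 and 3 on treatment and not in replicates 2 and 4, and those described here were chosen after their values were seen. Only replicates 2 and 4 carry a description number that also occurs on a macula densa library. Fkbp5, a cochaperone induced by glucocorticoids, measured 1.42, 5.45, 8.95 and 8.37 CPM on control diet and 32.8, 5.39, 133 and 4.98 CPM on treatment in control cells. The Fkbp5 values were 13.6 and 17.6 CPM on control diet and 21.5 and 19.2 CPM on treatment in macula densa cells. Its response difference was -2.47 with all 12 libraries and 0.86 with the 8 that share a description number. Zbtb16, another glucocorticoid target, went from -1.87 to 1.09 in the same way. Pdk4, a kinase that restrains pyruvate oxidation, measured 1.75, 4.32, 3.24 and 5.68 CPM on control diet and 36.3, 2.20, 95.3 and 5.19 CPM on treatment in control cells. The Pdk4 values were 2.15 and 3.58 CPM on control diet and 1.34 and 1.80 CPM on treatment in macula densa cells. The response difference of Pdk4 was -4.06 (edgeR adjusted p = 0.688) and -0.89 with the 8 libraries. Over all 14 mineralocorticoid and glucocorticoid targets tested, 0 passed an unadjusted p under 0.05 for the response difference (background 7.03%). The median was -1.22, and -0.19 with the 8 libraries. At that p, 3 were higher and 0 lower in control cells (background 4.01% and 2.44%), and 0 higher and 1 lower in macula densa cells (5.51% and 5.73%). Sgk1, a kinase induced by both hormones, did not follow, with a control-cell diet difference of -0.24 and -0.30 with the 8 libraries. Metallothionein genes, which bind zinc and respond to glucocorticoids and metals, followed. Mt1 measured 1.42, 2.72, 4.29 and 10.4 CPM on control diet and 41.6, 5.39, 92.6 and 7.02 CPM on treatment in control cells. The Mt1 values were 30.8 and 41.1 CPM on control diet and 20.1 and 32.2 CPM on treatment in macula densa cells, and its response difference went from -3.41 to -1.31. Mt2 went from -4.90 to -1.90, and Pck1, of gluconeogenesis, from -3.56 to -0.96.

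Tubular injury genes were also highest in treated control-cell replicates 1 and 3, and they had positive diet differences in macula densa cells as well. Lcn2, lipocalin 2, measured 0.328, 0.470, 1.43 and 1.34 CPM on control diet and 136, 7.34, 195 and 2.95 CPM on treatment in control cells. The Lcn2 values were 0 and 0.570 CPM on control diet and 11.7 and 13.9 CPM on treatment in macula densa cells. Control-cell replicates 2 and 4 on treatment were above control diet too, by less. Its response difference was -1.24 (standard error 2.48) with 12 libraries and 2.97 with the 8. Spp1, osteopontin, measured 20.7, 51.2, 95.2 and 217 CPM on control diet and 2401, 294, 4495 and 171 CPM on treatment in control cells. The Spp1 values were 305 and 327 CPM on control diet and 1237 and 1339 CPM on treatment in macula densa cells. Its response difference was -2.23 with 12 libraries and 0.37 with the 8. Clu, clusterin, measured 27.1, 21.6, 26.9 and 66.1 CPM on control diet and 649, 71.5, 888 and 79.7 CPM on treatment in control cells. The Clu values were 50.1 and 66.1 CPM on control diet and 259.9 and 211 CPM on treatment in macula densa cells. For Clu the response difference was -1.55 and 0.38. Of 16 injury and repair genes tested, 8 were higher in control cells at an unadjusted p under 0.05 (background 4.01%) and 2 in macula densa cells (5.51%), Lcn2 and Icam1, an adhesion molecule. The list's median diet differences were 1.28 in macula densa and 1.06 in control cells, and 1.11 and 0.66 with the 8 libraries. What sets replicates 1 and 3 apart was not tested.

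**Figure D4:**
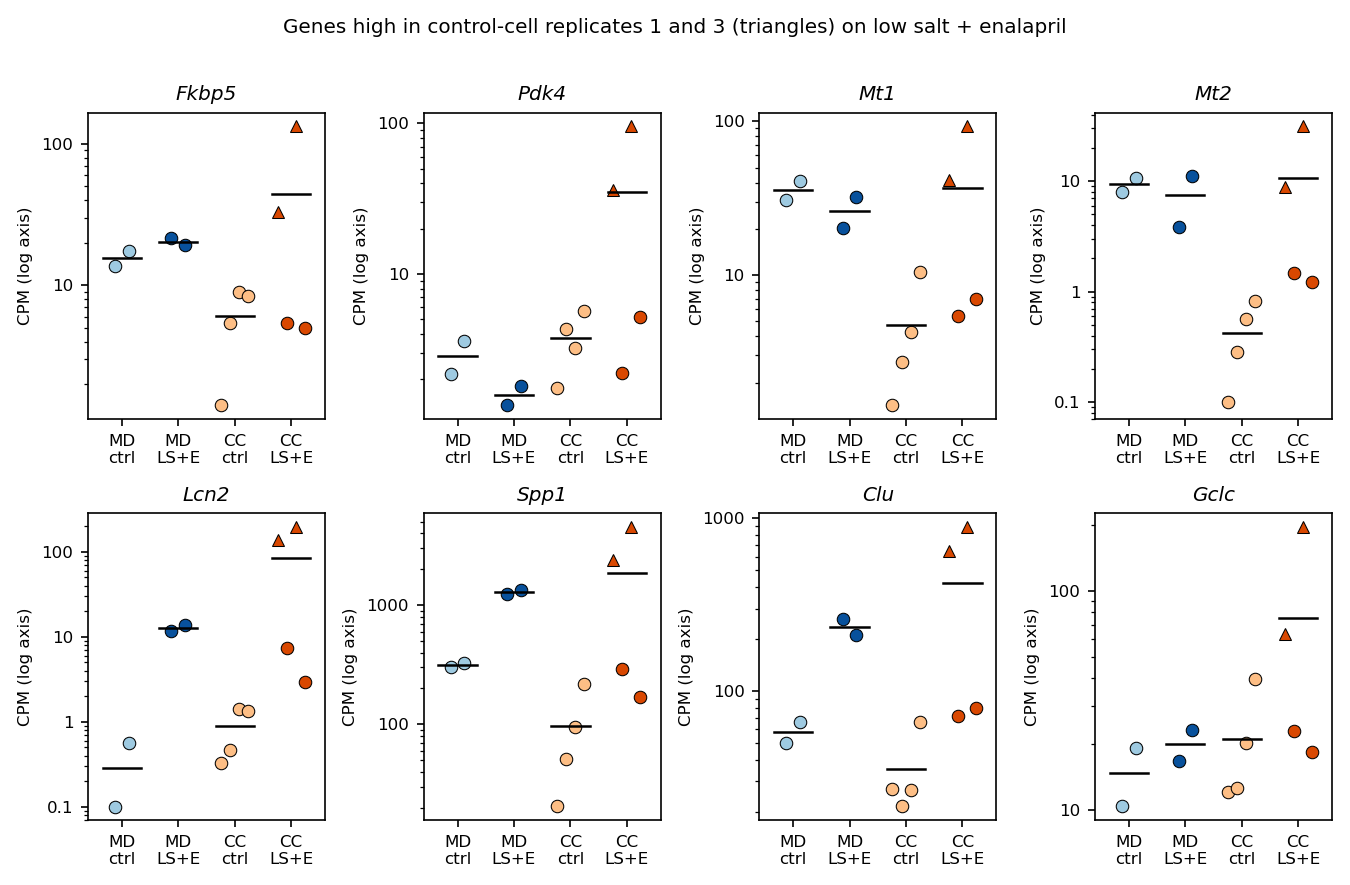
CPM on a log axis for 8 genes by library, with group means as lines; triangles mark control-cell (CC) replicates 1 and 3 on low salt plus enalapril (LS+E), whose description numbers have no macula densa (MD) library, and 0 CPM is drawn at 0.1. The triangles lie above the other CC libraries in each panel, while Lcn2, Spp1 and Clu are also higher on LS+E in both MD libraries.

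Immediate early genes, transcription factors and regulators induced within minutes by stimuli and by tissue dissociation, had positive medians in both populations. Of 24 tested, 11 were higher and 0 lower in control cells at an unadjusted p under 0.05 (background 4.01% and 2.44%), against 4 higher and 1 lower in macula densa cells (5.51% and 5.73%). Medians were 0.73 and 0.84, the latter 0.43 without macula densa replicate 2 on treatment, and the median response difference was 0.07. Jun measured 41.2 and 42.9 CPM on control diet and 69.9 and 87.8 CPM on treatment in macula densa cells. In control cells Jun measured 81.7, 57.97, 72.6 and 57.8 CPM on control diet and 93.3, 99.6, 85.3 and 125.1 CPM on treatment, with diet differences of 0.91 and 0.58. Egr1, a zinc-finger factor, measured 6.57 and 8.96 CPM on control diet and 19.3 and 30.3 CPM on treatment in macula densa cells. In control cells Egr1 measured 18.2, 19.1, 25.7 and 56.6 CPM on control diet and 45.8, 30.4, 51.2 and 51.8 CPM on treatment (1.68 and 0.59). The control cells held more of these transcripts on control diet, with list sums of 353 to 469 CPM against 153 to 155 CPM, and the part of dissociation was not tested. Members with a negative response difference at an unadjusted p under 0.05 were Fosl2 (-1.43) and Nr4a3, at 0 and 0 CPM in treated macula densa cells.

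Several clock genes had the same sign in both populations. Of 18 tested, 4 were higher (Dbp, Nr1d1, Nr1d2 and Tef) and 1 lower (Arntl) at an unadjusted p under 0.05 in both, where the share over all genes is 0.684% and 0.388%. Dbp, a clock output factor, measured 2.46 and 2.28 CPM on control diet and 5.36 and 6.73 CPM on treatment in macula densa cells. In control cells Dbp measured 0.875, 1.41, 1.24 and 1.96 CPM on control diet and 4.53, 1.47, 3.99 and 4.78 CPM on treatment. Nr1d1, REV-ERB alpha, measured 7.39 and 4.32 CPM on control diet and 11.1 and 13.9 CPM on treatment in macula densa cells. In control cells Nr1d1 measured 2.73, 5.45, 3.62 and 6.61 CPM on control diet and 10.1, 10.04, 11.1 and 19.7 CPM on treatment. In BMAL1 feedback, REV-ERB proteins repress Arntl, and Dbp, Tef and Nr1d1 are targets of BMAL1 with CLOCK. The times at which tissue was taken are not given in the sources used here, so a difference in sampling hour between diets cannot be told apart from one of diet. The median diet difference was 0.49 in macula densa and 0.52 in control cells, and 0.01 in control cells with the 8 libraries.

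Cytosolic ribosomal protein genes had more members higher on treatment in control cells than in macula densa cells. In control cells 35 of 84 were higher and 0 lower at an unadjusted p under 0.05 (background 4.01% and 2.44%), with a median of 0.45 and 81 of 84 positive (45.8% of all genes). In macula densa cells there were 5 higher and 3 lower members and 55 of 84 positive (48.5% of all genes), with a median of 0.09. The response difference had 0 positive and 5 negative members at that p (3.48% and 3.55%), with a median of -0.32 and 69 of 84 negative. Rplp0, of the ribosomal stalk, measured 59.9 and 75.3 CPM on control diet and 100.2 and 118 CPM on treatment in macula densa cells. In control cells Rplp0 measured 55.98, 51.6, 61.7 and 78.1 CPM on control diet and 138, 85.2, 129 and 85.9 CPM on treatment, higher on treatment in both. Rpl35a had a response difference of -1.15 and Rpl24 of -1.03. Ribosomal protein genes have many processed copies, so single members are uncertain. The list's median response difference was -0.13 without control-cell replicate 1 on treatment and -0.20 with the 8 libraries, and the control-cell median was 0.27 without that replicate.

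Mitochondrially encoded protein genes were lower on treatment in both populations by sign. Of 13, 6 were lower and 0 higher in macula densa cells at an unadjusted p under 0.05 (background 5.73% and 5.51%), and 5 lower and 0 higher in control cells (2.44% and 4.01%). Medians were -1.04 and -0.71, the latter -0.27 without control-cell replicate 4 on control diet. Mitochondrial genes took 11.7% and 14.1% of macula densa counts on control diet and 7.18% and 6.88% on treatment. In control cells they took 3.81%, 4.07%, 5.13% and 9.98% on control diet and 3.48%, 4.36%, 5.45% and 4.74% on treatment, with replicate 4 on control diet the highest and the others overlapping. mt-Cytb, of complex III, measured 1800 and 2302 CPM on control diet and 893 and 976 CPM on treatment in macula densa cells. In control cells mt-Cytb measured 748, 721, 1087 and 2086 CPM on control diet and 493, 689.9, 724 and 747 CPM on treatment. The 80 nuclear genes for subunits of oxidative phosphorylation had medians of -0.52 and -0.30. At an unadjusted p under 0.05, 7 (8.75%) were lower and 0 higher in macula densa cells (background 5.73% and 5.51%). In control cells 4 (5%) were lower and 1 (1.25%) higher (2.44% and 4.01%). Such a share also follows RNA quality and the handling of cells, whose part was not tested.

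Folding genes of the endoplasmic reticulum had negative diet differences in 26 of 31 in control cells and in 19 of 31 in macula densa cells. Over all genes tested, 45.8% and 48.5% had positive ones. Of the 31, 12 were lower and 2 higher in control cells at an unadjusted p under 0.05 (background 2.44% and 4.01%), and 5 lower and 0 higher in macula densa cells (5.73% and 5.51%), with 4 lower in both: Calr, Hsp90b1, Dnajb11 and Dnajc3. Hsp90b1, the lumenal chaperone GRP94, measured 307 and 288 CPM on control diet and 222 and 141 CPM on treatment in macula densa cells. In control cells Hsp90b1 measured 226, 304, 232 and 274 CPM on control diet and 142, 154, 94.5 and 139.8 CPM on treatment, with diet differences of -0.72 and -0.97. Every treated library lay below every library on control diet in each population. Calr, calreticulin, measured 244 and 241 CPM on control diet and 185 and 103 CPM on treatment in macula densa cells. In control cells Calr measured 176, 295, 179 and 232 CPM on control diet and 122, 123, 79.6 and 111 CPM on treatment (-0.76 and -1.02). The median response difference was 0.16, and Herpud1, of endoplasmic reticulum degradation, was the 1 member at an unadjusted p under 0.05, at -2.32 and -1.13 with the 8 libraries.

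Other lists had few members at an unadjusted p under 0.05 for the response difference, where 3.48% of all genes were positive and 3.55% negative. Basement membrane and collagen genes had 3 positive of 24: Frem1, a protein of the basement membrane (2.53), Col18a1 (0.91) and Col4a4 (0.82). Frem1 measured 10.5 and 11.7 CPM on control diet and 63.98 and 40.2 CPM on treatment in macula densa cells and under 1 CPM in each control-cell library. Wnk1, the kinase that regulates sodium chloride cotransporters, measured 334 and 422 CPM on control diet and 689 and 690.3 CPM on treatment in macula densa cells. In control cells Wnk1 measured 167, 155, 210.3 and 278 CPM on control diet and 115, 195, 93.9 and 167 CPM on treatment (1.37, edgeR adjusted p = 0.633). Mcm2, a subunit of the replicative helicase, measured 2.67 and 3.50 CPM on control diet and 10.7 and 9.19 CPM on treatment in macula densa cells. In control cells Mcm2 measured 3.17, 3.95, 3.81 and 4.86 CPM on control diet and 5.15, 2.69, 1.68 and 2.85 CPM on treatment (1.98, edgeR adjusted p = 0.558). Ntrk2, the receptor for brain-derived neurotrophic factor, measured 0.513 and 0.407 CPM on control diet and 1.92 and 2.30 CPM on treatment in macula densa cells. In control cells Ntrk2 measured 2.73, 2.54, 1.43 and 0.827 CPM on control diet and 1.84, 1.47, 1.05 and 1.53 CPM on treatment (2.49). Cxcl12, a chemokine, had -1.66. Proteasome subunits had 0 of 37 members in either direction, with a median of -0.14, cholesterol synthesis genes 0 positive and 1 negative of 20 (0.08) and sodium transport genes and their kinases 1 positive and 0 negative of 26 (0.01).

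**Figure D5:**
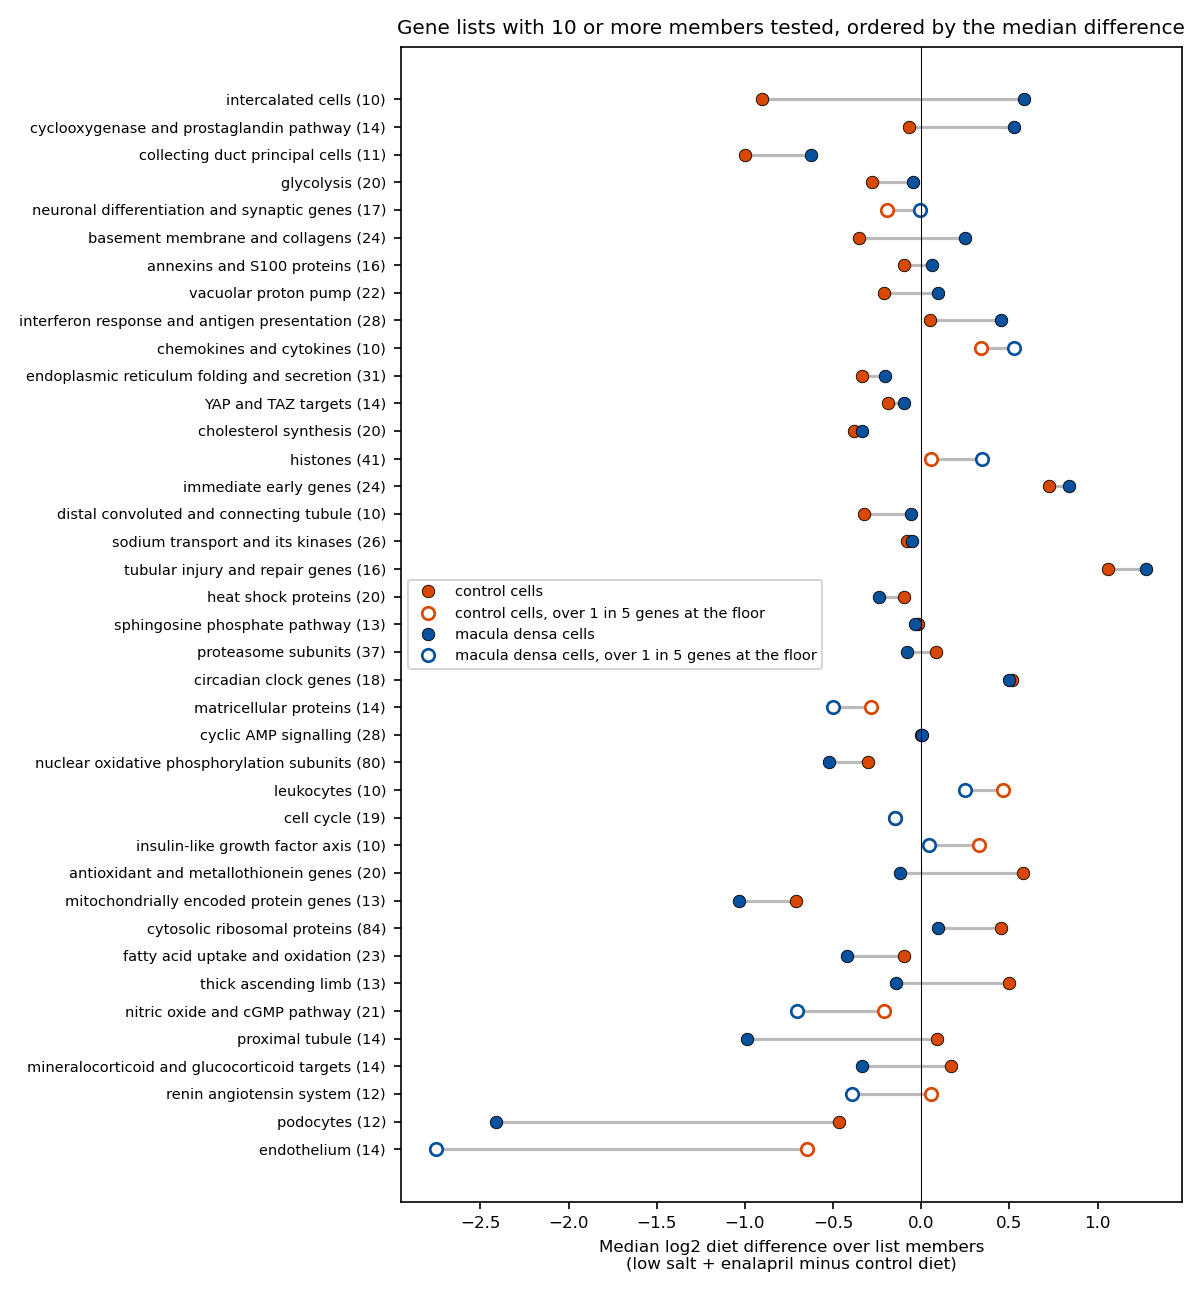
Median log2 diet difference over the members of each gene list with 10 or more genes tested (number in brackets), for control cells (orange) and macula densa cells (blue); open symbols mark lists with over 1 in 5 members at the floor, whose fitted medians depend on the prior count. Immediate early and tubular injury genes are positive and mitochondrially encoded genes negative in both, while podocyte and endothelial markers lie far lower in macula densa cells.

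Markers of other cell types differed between the groups, and several had larger median response differences than any functional list. Beside the counts that follow, 3.48% of all genes were positive and 3.55% negative at an unadjusted p under 0.05. Endothelial markers had a median of -2.33 (-1.66 with libraries of 3 counts or fewer set to 3), with 0 positive and 1 negative of 14 at an unadjusted p under 0.05, and a value of -0.40 without macula densa replicate 1 on control diet. Flt1, a receptor for vascular endothelial growth factor, measured 24.5 and 4.64 CPM on control diet and 0.958 and 0.328 CPM on treatment in macula densa cells. In control cells Flt1 measured 184, 146, 115 and 6.92 CPM on control diet and 54.6, 124, 63.2 and 166 CPM on treatment. Podocyte markers had a median of -1.90 (-1.24 with the same floor) with 0 of 12 in either direction, and -0.26 without macula densa replicate 1 on control diet. They summed to 220 and 42.1 CPM in macula densa cells on control diet and to 64.2 and 39.7 CPM on treatment, so replicate 1 on control diet was the highest and the groups overlapped. Proximal tubule markers had a median of -0.99 with 0 positive and 3 negative of 14, Pck1 and Slc27a2 among them, thick ascending limb markers -0.60 with 0 of 13, and collecting duct principal cells 0.44 with 0 of 11. Intercalated cell markers had a median of 1.15, positive in 10 of 10 (49.5% of all genes). Their median diet differences were 0.58 in macula densa and -0.90 in control cells. Slc4a9, a bicarbonate transporter of these cells, measured 4.41 and 4.81 CPM on control diet and 37.9 and 40.7 CPM on treatment in macula densa cells. In control cells Slc4a9 measured 3.72, 16.7, 26.1 and 75.9 CPM on control diet and 70.6, 14.9, 32.8 and 23.7 CPM on treatment. Without control-cell replicate 4 on control diet the intercalated medians were 0.26 for the response difference and 0.03 in control cells, and without macula densa replicate 2 on treatment the macula densa median was -0.28. Fibroblast and mesangial markers had a median of -1.52 with 0 positive and 1 negative of 9, and 0.13 without macula densa replicate 1 on control diet. Smooth muscle and renin markers had 0 positive and 3 negative of 9, Acta2 (-2.48), Myh11 (-2.51) and Akr1b7. Leukocyte markers summed to 3.50 to 13.03 and 4.27 to 10.9 CPM in macula densa cells by diet. The part of these cells in the responses above was not tested. The podocyte and endothelium score was taken from these same libraries, so the values given with it cannot decide that part.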

How the data were processed

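RNA-seq libraries of sorted macula densa and control cells were made with a low-input stranded kit for total RNA, prepared side by side per the labels' protocols. The deposited table holds expected counts per gene (16.1% of values are not whole), made by the authors with STAR 2.61 and Partek on mm10 per the submitters' processing notes; whether counting used strand is not given in the sources used here. Every row of the 23378 sums to at least 10. Counts were rounded, 14180 genes passed edgeR's filter (count minimum 10, total minimum 15), and a quasi-likelihood model with 4 group terms was fitted to all 12 libraries in edgeR 4.0.16 (R 4.3.3) with trimmed-mean scaling and Benjamini-Hochberg adjustment at 0.05. In simulated data with a 4-fold response difference in 200 genes, the edgeR test called 24 of them (12%) at an adjusted p under 0.05, with 1 false call. That 0 genes passed in the data thus does not show that the responses are alike. DESeq2 1.42.0, limma 3.58.1, other scalings and filters, a podocyte and endothelium score as covariate, and fits with libraries left out were alternatives.

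Named genes averaged 5 CPM or more without a group holding 3 counts or fewer in every library: the 10 smallest p per direction for the response difference, since none passed the threshold, the 8 per direction shared by both populations and up to 5 per direction with opposite signs, ranked by the larger of the 2 p-values. Up to 3 genes per direction with a group at that floor, genes of the macula densa signal, and members of the 44 gene and marker lists with a p under 0.05 for the response difference could be named too. Other list members and Kdr, Aqp2 and similar markers are printed as examples chosen after their values were seen. The genes and lists were chosen with earlier results of these data known. Description numbers are shared by macula densa and control-cell libraries for 8 of the 12. The labels do not say that a number marks a shared animal, so the main fit used no pairing. Deviations from group means of the 4 same-numbered pairs correlated at 0.46, -0.09, 0.12 and -0.05. With 2 macula densa libraries per diet their deviations mirror each other, so these values cannot decide whether the numbers pair samples. Gene positions are from the GENCODE annotation of GRCm38, matched by symbol for 23351 rows, and promoter windows from RefSeq matched 36 of 47 genes looked up. A few results are not reported here.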

Additional observations from a re-analysis of the deposited data

Results flagged for a closer look

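In 20 of 324 sets of a gene or list within a control-cell group, 1 library lay apart from the other 3 by Dixon's criterion, where chance gives about 16.2. Values are log2 CPM, with the range of the other libraries, and no explanation was tested. Of these, 10 concern control-cell replicate 4 on control diet. It was low for Sparcl1 at 4.60 against 5.61 to 5.78, for Jdp2 at 2.05 against 2.94 to 3.09, for the cell cycle inhibitor Cdkn1a at 0.99 against 2.06 to 2.24 and for Flt1 at 2.84 against 6.85 to 7.53. It was also low for the clock-linked repressor Nfil3 at -0.24 against 1.34 to 1.38, for the aldosterone-induced kinase Sgk1 at 2.71 against 5.91 to 6.23, for the mean of YAP and TAZ targets at 3.87 against 4.64 to 4.75 and for basement membrane genes at 4.06 against 4.83 to 4.89. It was high for Mindy2 at 4.92 against 4.44 to 4.50 and for cholesterol synthesis genes at 2.70 against 2.25 to 2.30.

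Replicate 2 on control diet was high for the helicase subunit Mcm5 at 0.71 against 0.28 to 0.35, and replicate 1 was low for endoplasmic reticulum folding genes at 3.82 against 4.08 to 4.13. Among treated control cells, replicate 1 was low for mt-Nd2 at 7.57 against 8.05 to 8.10 and for Anxa11 at 4.31 against 4.63 to 4.66. Replicate 2 was high for Nr4a3 at 1.96 against 1.18 to 1.3 and low for Dbp at 0.76 against 2.08 to 2.32. Replicate 3 was high for Herpud1 at 5.55 against 3.31 to 3.56 and for the endopeptidase gene Mme at 5.14 against 4.81 to 4.85, and low for the macula densa marker list at 0.86 against 1.79 to 1.97. Replicate 4 was high for Nr1d1 at 4.32 against 3.36 to 3.51.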

How the results depend on the processing

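Calls were few and depended on the tool. For the response difference, DESeq2's Wald test called 13 genes (9 higher, 4 lower) and the fit with a podocyte and endothelium score 10 (8 higher, 2 lower), of which Sparcl1, Anxa1 and Alcam are in both; 997 genes had an unadjusted p under 0.05, and 0 were called with any 1 library left out. The 997 became 1774 with no filter, 390 at a mean of at least 5 CPM, 1823 with the score and 789 to 1946 with 1 library left out (lowest without control-cell replicate 3 on control diet, highest without macula densa replicate 1 on treatment). In macula densa cells, where 0 genes passed, DESeq2 called 93, limma voom 4, a fit of only those libraries 105, the 8 libraries 22, the score 48 and fits with 1 library left out 0 to 1. The 1594 genes at an unadjusted p under 0.05 there became 2958 with no filter, 688 at 5 CPM, 2405 with the score and 1352 to 2559 with 1 library left out. In control cells the 1 call became 74 with DESeq2, 0 in a fit of only those libraries, 2 in the 8 libraries, 9 with the score and 1 to 5 with 1 library left out. The 914 at an unadjusted p under 0.05 became 507 at 5 CPM, 329 in the 8 libraries and 587 to 1175 with 1 library left out. For the average over populations the 1 call became 2 with DESeq2 size factors, 2 with library totals, 7 with no filter, 245 with DESeq2, 0 with limma voom, 18 in the 8 libraries, 179 with the score, 12 at an adjusted p of 0.1 and 0 to 20 with 1 library left out. Its 1780 genes at an unadjusted p under 0.05 became 3114 with no filter, 862 at 5 CPM and 1501 to 2600 with 1 library left out. With library totals alone the median control-cell diet difference was -0.13 against -0.04, and the response differences at an unadjusted p under 0.05 were 481 higher and 409 lower against 493 and 504.

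With a replicate block, the response difference had 0 calls for the title number and 0 for the description number, and the title block gave 0 calls in control cells and 0 for the average. The description block was fitted for the response difference only, since each number occurs on 1 diet.

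Among named values larger than their standard error, signs turned for Atf3 (response difference -0.045 to 0.81 with 1 library left out, lowest without macula densa replicate 2 on treatment), and in the 8 libraries for Fkbp5 (0.86, and -0.48 in control cells), Zbtb16 (1.09 and -1.10), Spp1 (0.37), Clu (0.38) and Gclc (0.12). With the description block these were 0.83 for Fkbp5, 1.43 for Zbtb16, 0.35 for Spp1, 0.38 for Clu and 0.15 for Gclc, and Zbtb16 was also 0.22 with limma voom and -2.78 to 0.29 with 1 library left out, highest without macula densa replicate 2 on control diet. Smaller values that turned in the 8 libraries were the response differences of Lcn2 (2.97), Krt19 (0.63) and Dbp (0.024) and the control-cell value of Tsc22d3 (-1.40). Among list medians larger than their spread, the insulin-like growth factor axis in control cells was -0.0016 in the 8 libraries. Matricellular genes in macula densa cells were 0.27 with the score and -1.92 to 0.13 with 1 library left out, highest without macula densa replicate 1 on control diet. The neuronal list's response difference was -0.0041 with the score and -0.14, -0.068 and -0.078 without macula densa replicates 1 and 2 on treatment and control-cell replicate 2 on control diet (0.40 at most), and the vacuolar pump's was -0.084 with the score. Podocyte markers, which enter the score, were 0.21 for the response difference and 0.019 in macula densa cells with it, and fibroblast markers 0.13 and 0.069 without macula densa replicate 1 on control diet (lowest -3.67 and -2.43 with another library left out). Smaller list medians turned in the 8 libraries as well, among them the response differences of the study group's factors (1.2), injury genes (0.47), matricellular genes (0.42), cholesterol synthesis (-0.34), chemokines (-0.24) and immediate early genes (-0.074), and the control-cell values of podocyte markers (0.14), glucocorticoid targets (-0.33), proximal tubule markers (-0.22) and distal convoluted tubule markers (0.19). The cause of these turns was not tested.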
